A study of Mus musculus with 8 samples.

Results

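The 9 genes Lama3, Lamb3, Itga2, Itga3, Itga6, Itgb1, Itgb4, Itgb6 and Cd44 encode 2 chains of laminin-332, 6 integrin subunits and the hyaluronan receptor CD44. They were examined in chromatin loop lists from mouse pancreatic cancer cells. A loop was taken as a loop of one of these genes when 1 of its 2 ends (anchors) lay within 2 kb of an annotated transcript start of that gene, whatever the loop's value. All 9 genes had such an anchor, and 10 of the 30542 anchors and 253 of the 249200 distinct loops were theirs. Of the 10786 protein-coding genes with an anchor near a start, the median gene had 23 loops summed over the lists.

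Hi-ChIP reads contacts between distant stretches of DNA in chromatin pulled down with an antibody, here against the pioneer factor FOXA1 (ab5089) or the nuclear receptor HNF4G (HPA005438). The cells came from the KPC mouse model of pancreatic cancer: 1 line from a primary tumour (tumour) and 1 matched line from a liver metastasis (liver mets), both labelled WT in genotype and untreated, and grown in DMEM with FBS. Each of the 4 groups (FOXA1 tumour, FOXA1 liver mets, HNF4G tumour, HNF4G liver mets) had 2 replicates but 1 list over both, so that no spread between replicates and no test between groups could be calculated, and the state of the cells is represented by 1 line each. The lists held 104136, 125623, 76323 and 78098 loops in that order, and the read depth behind them was not given in the sources used here.

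Laminin-332 is a basement membrane protein that holds the chains encoded by Lama3 and Lamb3. Epithelial cells hold on to it through the integrins α3β1 and α6β4, the second of which anchors hemidesmosomes to keratin filaments, while α2β1 binds mainly collagen and αvβ6 binds fibronectin and activates latent TGF-β. CD44 binds hyaluronan and is widely used as a marker in carcinoma. Loops between a promoter and a distant anchor are the contacts through which an enhancer can reach its gene.

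The sequences below lie where the loops of Itga3 and Itga6 with the largest values or in all 4 lists end, and inside the wide Itga3 anchor and the Cd44 anchor, in each case away from the bases next to the start. They are shown because they hold the letters that the pulled-down factors are known to prefer. Each is 61 bases of the mm10 plus strand outside annotated exons, with the searched letters in capitals: TGTTTAC for forkhead proteins such as FOXA1 and CAAAGTCCA for HNF4 proteins, on either strand.

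Itga3 promoter anchor, forkhead, chr11:95080339-95080399: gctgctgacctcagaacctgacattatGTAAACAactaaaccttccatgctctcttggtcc

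Itga3 promoter anchor, HNF4, chr11:95074930-95074990: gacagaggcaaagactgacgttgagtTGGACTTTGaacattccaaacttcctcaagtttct

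Itga3 partner 11.5 kb upstream, forkhead, chr11:95089677-95089737: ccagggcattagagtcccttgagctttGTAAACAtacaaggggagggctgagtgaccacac

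Itga3 partner 25.4 kb upstream, forkhead, chr11:95103827-95103887: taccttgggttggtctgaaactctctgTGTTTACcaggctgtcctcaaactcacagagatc

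Itga6 partner in its gene body, forkhead, chr2:71814161-71814221: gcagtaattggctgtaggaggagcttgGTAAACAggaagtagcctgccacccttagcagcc

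Itga6 partner in its gene body, forkhead, chr2:71814593-71814653: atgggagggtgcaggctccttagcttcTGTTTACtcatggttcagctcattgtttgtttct

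Cd44 promoter anchor, forkhead, chr2:102902402-102902462: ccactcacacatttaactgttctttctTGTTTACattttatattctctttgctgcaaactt

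In the reference, 31 of the 61 bases at the Itga3 partner 25.4 kb upstream and 20 of those at Cd44 were marked as repeats. Such short runs of letters are common: 36.6% of all anchors held the forkhead letters and 4.4% the HNF4 letters. Among the 10 promoter anchors, 4 held the forkhead letters: those of Lama3, Itga3 and Cd44 and the second anchor of Itgb4. The HNF4 letters stood in 1, that of Itga3, which at 12151 bp was far wider than the median anchor of 2335 bp. Of the 28 distinct partners of loops found in all 4 lists, 12 (42.9%) held the forkhead letters and 0 the HNF4 letters. These partners were wider than anchors in general, with a median of 2798 bp. Per kb, the forkhead letters were rarer than in all anchors (0.179), at 0.127 in these partners and 0.117 in the promoter anchors. Among all anchors near a start they were rarer too, at 0.151, and the 0.117 rests on few matches. The letters of AP-1, a factor family of many epithelial enhancers (TGANTCA), stood in 9 of the 10 promoter anchors, and in 63.6% of all anchors. Per kb they were about as frequent in both, at 0.422 and 0.432. Of the anchors near a start of any gene, 54.5% held them, at 0.327 per kb. The 10 promoter anchors were wider than these, with a median of 2965 bp beside 2479 bp. The letters describe these windows and say nothing of where either factor sat.

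The number of loops differed widely between the genes (bar plot of loops per gene). Itga3, the α3 subunit, had 41 loops in FOXA1 tumour, 40 in FOXA1 liver mets, 36 in HNF4G tumour and 29 in HNF4G liver mets. Its sum of 146 was reached or passed by 2.54% of the 10786 genes. Itgb4, the β4 subunit and partner of α6 in hemidesmosomes, had 30, 39, 28 and 18 loops in the same order, a sum reached by 4.67% of genes.

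**Figure D1:**
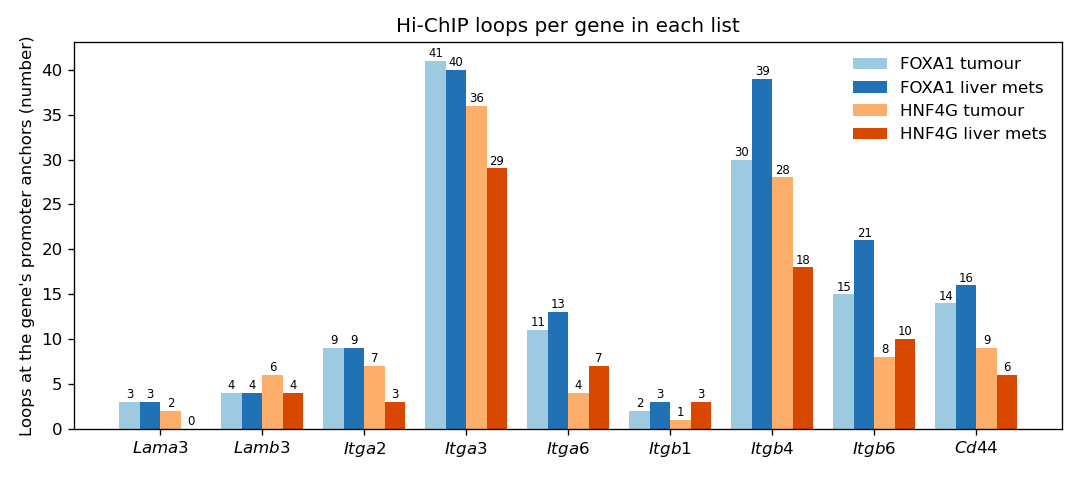
Number of loops at the promoter anchors of each gene (y axis) for the 9 genes (x axis), with 1 bar for each of the 4 lists and the number above it. Itga3 and Itgb4 stand between 18 and 41 in each list, and Lama3 and Itgb1 between 0 and 3.

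The remaining genes stood lower. Itgb6, the β6 subunit, had 15, 21, 8 and 10 loops, and Cd44 had 14, 16, 9 and 6. Itga6, the α6 subunit, had 11, 13, 4 and 7, and Itga2, the α2 subunit, had 9, 9, 7 and 3. Both laminin chains were sparse, with 4, 4, 6 and 4 loops for Lamb3 and 3, 3, 2 and 0 for Lama3, the α3 chain. Itgb1, the β1 subunit shared by many integrins, had 2, 3, 1 and 3, and 82.8% of genes had at least as many.

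The number of anchors within reach differed too. Within 1000 kb of the Itga3 anchor lay 91 other anchors, of which 55 (60.4%) were joined to it in at least 1 list. The 2 Itgb4 anchors had 117 and 115 such neighbours, of which 26.5% and 27.0% were joined. Itgb6 had 41 and 61.0% of them joined, whereas Itgb1 had 13 neighbours and Lama3 had 19, with 30.8% and 26.3% joined. Itga3 and Itgb6 had the highest joined shares from very different numbers of neighbours, and the part that anchor width and neighbours have in the number of loops was not tested.

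The comparison of liver mets with tumour asked whether the contacts of these genes differ between the metastatic and the primary line. As lists differ in length, the share of a list held by a gene was compared as a ratio of shares, with a 95% exact interval (Clopper-Pearson, given the sum of both counts) that covers counting error only and treats loops as independent, which loops that share an anchor are not. The 9 genes together had 129 loops in FOXA1 tumour and 148 in FOXA1 liver mets, a ratio of shares of 0.951 (95% interval 0.746 to 1.21). In HNF4G they had 101 in tumour and 80 in liver mets, a ratio of 0.774 (0.57 to 1.05). For all loops with a promoter anchor the ratios were 0.983 and 0.965. Both intervals for the 9 genes include 1 and the value of all promoter loops. With starts of protein-coding transcripts only, which drops Itgb6 and the second Itgb4 anchor, the HNF4G ratio was 0.683 (0.48 to 0.967). It came from 83 loops in tumour and 58 in liver mets, of which the first Itgb4 anchor gave 18 and 6. This interval excludes 1 but includes the 0.965 of all promoter loops, and the setting was 1 of several alternatives.

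By gene, a ratio of at least 1.5 in either direction was counted where both lists held at least 10 loops together. In FOXA1, 0 of the 6 genes that could be counted were higher in liver mets and 0 lower, where 11.4% of 6862 genes were higher and 15.2% lower. In HNF4G, 1 of 7 was higher, where 12.7% of 5425 genes were, and 4 were lower, where 19.5% of genes were. The gene higher in liver mets was Itga6 (4 loops in tumour and 7 in liver mets, ratio 1.71, interval 0.435 to 7.97). The 4 lower were Lamb3 (6 and 4, ratio 0.652), Itga2 (7 and 3, ratio 0.419), Itgb4 (28 and 18, ratio 0.628) and Cd44 (9 and 6, ratio 0.652). The median log2 ratio of the 7 was -0.618, beside -0.0332 over all genes counted. This median falls on Lamb3 and Cd44, both with few loops. With anchors up to 5 kb from a start their ratios were 0.838 and 1.05, and the median was not calculated for that setting.

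None of these 5 differences exceeded its counting error: all 5 intervals include 1, the narrowest being that of Itgb4 (0.327 to 1.18). With a fold of 2 in place of 1.5, Itga2 was the 1 gene left, and with at least 20 loops over both lists, 2 genes could be counted and Itgb4 alone was lower. With anchors up to 5 kb from a start, 3 of the 4 lower calls were lost: Cd44 turned to 1.05 (13 loops in tumour and 14 in liver mets), Lamb3 stood at 0.838 and Itgb4 at 0.749. Divided by the loops with a promoter anchor in place of all loops, Lamb3 and Cd44 fell just short of the fold (both 0.675). Itga3 had a ratio of 0.809 (0.51 to 1.28) in FOXA1 and 0.787 (0.466 to 1.32) in HNF4G. Itgb6 lay above 1 in both, at 1.16 (0.57 to 2.42) and 1.22 (0.434 to 3.56).

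**Figure D2:**
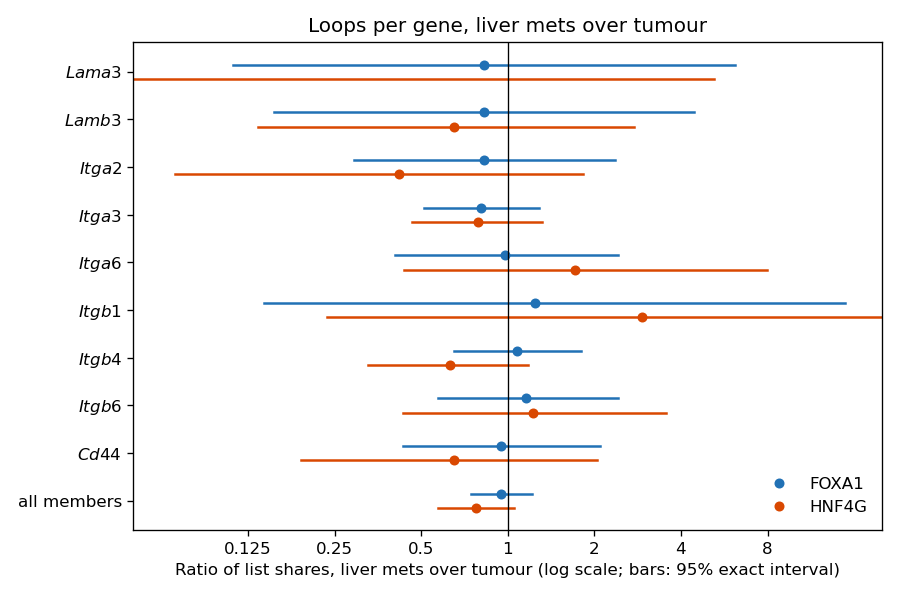
Ratio of list shares, liver mets over tumour (x axis, log scale), for each gene and for all 9 together (y axis), with points for the ratio and bars for the 95% exact interval; Lama3 in HNF4G has no point because its liver mets count is 0, and bars that reach an edge go on beyond it. Every bar crosses 1.

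Between the antibodies, the ratio of shares FOXA1 over HNF4G was 0.936 (0.716 to 1.23) in the tumour line and 1.15 (0.87 to 1.53) in the liver mets line. The highest single ratio in tumour was that of Itga6, at 2.02 (0.597 to 8.68), and the lowest that of Lamb3, at 0.489 (0.101 to 2.06). Antibody and list cannot be told apart here.

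At Itga3, the loops with the largest values of the set, called strongest here, reached upstream, away from the gene (plot of partner distances). They start from the wide Itga3 anchor, and the part of anchor width and short distance in these values was not tested. Each loop carries a value, read here as the −log10 of an adjusted p and capped at 20, whose scale differs from list to list. On this reading a low value is weak evidence, and joined means only that the loop was listed. A value of at least 2 was reached by 13.2%, 14.2%, 14.9% and 12.5% of the genes' loops (FOXA1 tumour, FOXA1 liver mets, HNF4G tumour, HNF4G liver mets). Of all promoter loops, 8.28%, 9.57%, 8.02% and 7.8% reached it. The anchor 25.4 kb upstream, chr11:95095789-95107098, outside any protein-coding gene, had a value of 20 in all 4 lists. The anchor 11.5 kb upstream, chr11:95084340-95090836, also outside such genes, had 20 in both FOXA1 lists and in HNF4G tumour, and 10.4 in HNF4G liver mets. No loop of the other 8 genes reached 20. In FOXA1 tumour, HNF4G tumour and HNF4G liver mets, all loops of the set with a value of at least 4 (5, 6 and 4 loops) were Itga3 loops, whereas in FOXA1 liver mets 6 of 13 were.

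Of the 67 Itga3 loops, 14 were in all 4 lists and 32 ended at the start of another protein-coding gene. The loop to Kat7, a histone acetyltransferase gene 234 kb upstream, had values of 7.17, 1.53, 1.79 and 3.39 (FOXA1 tumour, FOXA1 liver mets, HNF4G tumour, HNF4G liver mets). That to the tachykinin gene Tac4, 183 kb upstream, had 1.58, 1.39, 9.48 and 9.83. Partners in all 4 lists also included Pdk2, a pyruvate dehydrogenase kinase gene, 34.7 kb downstream, Ppp1r9b 84.5 kb downstream and the homeobox gene Dlx3 44.2 kb upstream. All of these are neighbours on the same stretch of chromosome 11.

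The promoter of Col1a1, which encodes a chain of collagen I, 139 kb downstream of Itga3, was joined to it in 3 lists, with values of 1.33 in FOXA1 tumour, 1.95 in FOXA1 liver mets and 2.61 in HNF4G tumour. The start of Cdk5rap3, 1842.1 kb away, was joined in the same 3 lists (4.08, 6.84 and 1.99). In both tumour lists and neither liver mets list, Itga3 had 1 loop, to an anchor 801 kb downstream (values 1.91 and 3.9). In both liver mets lists and neither tumour list it also had 1, to the start of Prr15l 1857.5 kb upstream.

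**Figure D3:**
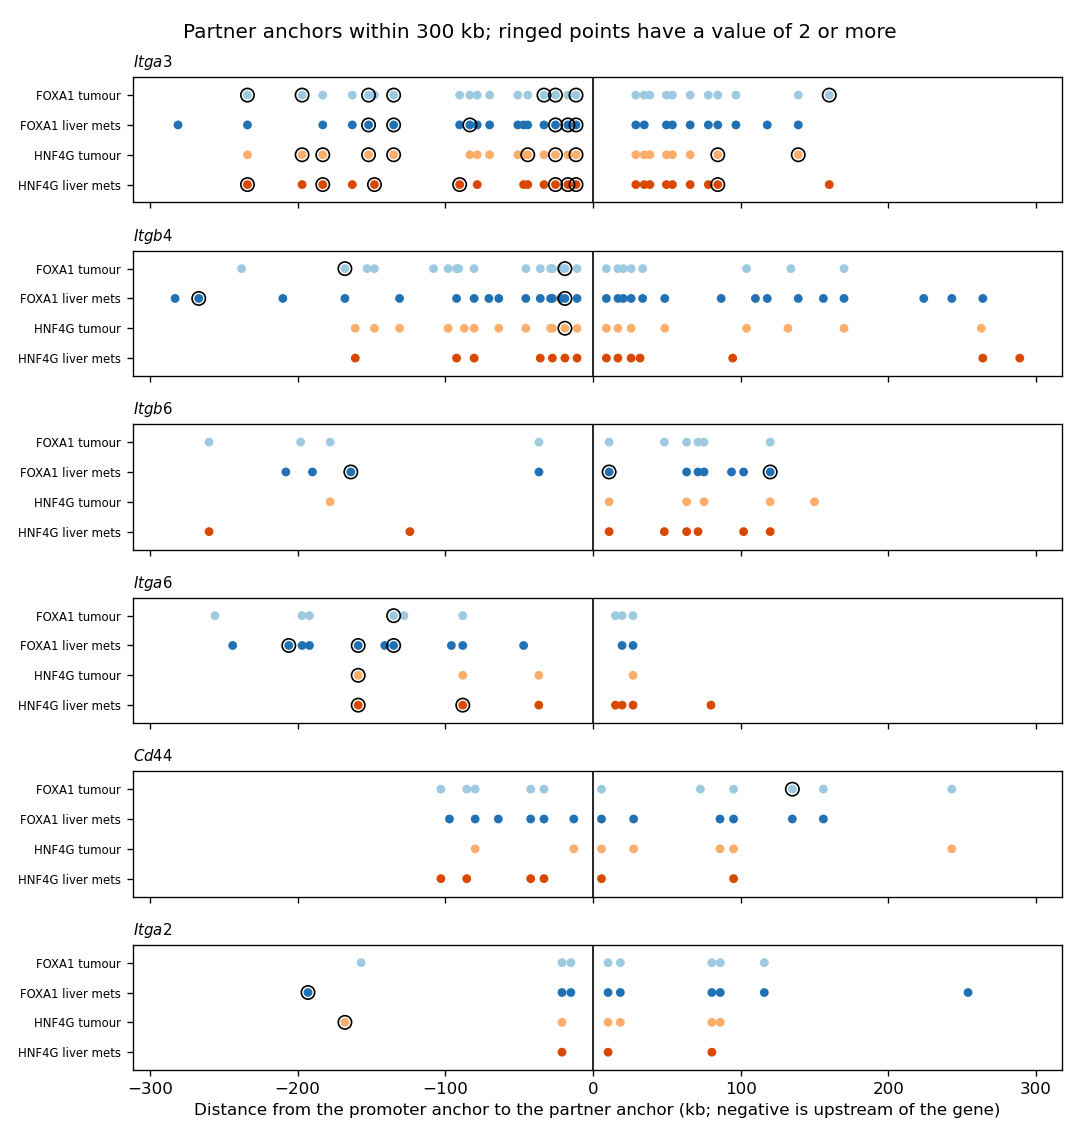
Distance from the promoter anchor to the partner anchor (x axis, kb, negative upstream of the gene) for loops within 300 kb of 6 genes, 1 row per list, with each point 1 loop and rings marking a value of 2 or more. Ringed points gather at Itga3, and Itga6 has most of its partners upstream.

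The 250 bases before the Itga3 start in the RefSeq promoter table (GRCm38.p6, minus strand, chr11:95076715-95076964) are shown with CG pairs in capitals because this is the end that the strongest loops share: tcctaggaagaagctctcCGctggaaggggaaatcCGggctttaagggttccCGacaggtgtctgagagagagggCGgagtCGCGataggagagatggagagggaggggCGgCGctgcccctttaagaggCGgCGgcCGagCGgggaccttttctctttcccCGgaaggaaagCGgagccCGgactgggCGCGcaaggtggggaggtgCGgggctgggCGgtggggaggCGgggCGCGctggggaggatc. They hold 22 CG pairs, against a median of 6 over the same 250 bases of all promoters, and 14.8% of promoters hold as many. Neither the forkhead nor the HNF4 letters occur in the 9 promoter entries found for 6 of the genes, while 3.65% and 0.475% of the 32851 promoters hold them. No entry was found for Lama3, Itga6 and Itgb4.

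Itga6, whose product pairs with β4 or β1 to bind laminin, had a lopsided set of partners. Of its 20 loops, 16 went upstream, towards the homeobox genes Dlx1 and Dlx2, and 4 downstream, 3 of which ended within 27.1 kb inside the gene itself. Within 300 kb, 13 of 14 upstream anchors (92.9%) and 4 of 7 downstream anchors (57.1%) were joined. The Dlx1 start was joined in FOXA1 tumour (256 kb, value 1.73) and the Dlx2 start in FOXA1 liver mets (244 kb, value 1.6).

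Itga6 loops in all 4 lists reached an anchor 88.2 kb upstream (values 0.431, 1.2, 0.422 and 3.02) and the gene body 27.1 kb downstream (1.81, 0.282, 0.416 and 0.39), the second of which holds both Itga6 sequences above. An anchor 135 kb upstream had values of 2.3 in FOXA1 tumour and 4.81 in FOXA1 liver mets and was in neither HNF4G list. An anchor 159 kb upstream was in FOXA1 liver mets (2.34), HNF4G tumour (2.75) and HNF4G liver mets (3.0) but not in FOXA1 tumour. All 4 HNF4G tumour loops of Itga6 were also in the list of HNF4G liver mets.

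Itgb4 had 2 anchors. The first, chr11:115974198-115976835, covers the start of the protein-coding transcripts, and the second, chr11:115991009-115993509, lies inside the gene at the start of a noncoding transcript and within 2 kb of a start of B230344G16Rik. The first anchor had 14 loops in FOXA1 tumour, 19 in FOXA1 liver mets, 18 in HNF4G tumour and 6 in HNF4G liver mets. The second had 17, 21, 10 and 12.

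In HNF4G, the ratio of shares liver mets over tumour was 0.326 (0.106 to 0.857) at the first Itgb4 anchor and 1.17 (0.464 to 3.03) at the second. In FOXA1 the ratios were 1.13 (0.535 to 2.42) and 1.02 (0.515 to 2.07). The first anchor in HNF4G was the 1 case of 20 (10 anchors, 2 factors) in which the interval excluded 1. It was singled out after these values were seen, and the intervals were not adjusted for the 20 looked at.

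The partners of Itgb4 were mostly promoters in a gene-dense stretch: 47 of 69 loops ended at the start of another protein-coding gene. The first anchor was joined in all 4 lists to exons of the neighbouring gene Sap30bp, 19.0 kb away (values 2.44, 2.85, 2.82 and 0.366) and 10.8 kb away (1.91, 0.386, 0.911 and 0.138). The second anchor was joined in all 4 lists to the 3′ end of Itgb4, where Galk1 also lies, 16.9 kb downstream (0.119, 0.237, 0.442 and 0.771). The loop between both Itgb4 anchors, over 16.7 kb, was in the FOXA1 tumour list (0.303) and the FOXA1 liver mets list (0.184) and in neither HNF4G list.

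Among longer Itgb4 loops, the start of the cell polarity gene Llgl2 was joined to the second anchor, 168 kb upstream, in both FOXA1 lists (2.67 in tumour, 1.33 in liver mets). The start of Fbf1, 170 kb downstream of the first anchor, was in both FOXA1 lists and HNF4G tumour (1.52, 1.35 and 1.64). The start of Grb2, a signalling adaptor gene, was joined 267 kb upstream in FOXA1 liver mets alone (3.04). Itgb4 had 4 loops in both tumour lists and neither liver mets list, among them one to the starts of Unc13d and Wbp2 (1.87 and 1.13), and 2 in both liver mets lists and neither tumour list, among them one to the start of Recql5 (0.0889 and 1.51).

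The Itgb6 anchor, chr2:60702008-60704694, holds no annotated start and lies within 2 kb of starts of noncoding transcripts of the gene. No anchor lay within 2 kb of a protein-coding start of Itgb6, so its loops describe a site inside the gene rather than its coding promoter. Of 30 loops, 7 ended within the body of Itgb6 and 3 were in all 4 lists. The loop to the gene body 10.9 kb downstream had values of 0.955, 7.61, 1.99 and 0.36, and the loop to an anchor 120 kb downstream, past the gene's end, had 1.92, 5.26, 1.39 and 1.51. The highest value of both was in FOXA1 liver mets.

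Upstream of Itgb6, the RNA-binding protein gene Rbms1 took several partners. Its intron 164 kb away was joined in FOXA1 liver mets alone (5.75), and a start 178 kb away in both tumour lists and neither liver mets list (1.55 in FOXA1, 1.7 in HNF4G). Another start of Rbms1, 260 kb away, was joined in FOXA1 tumour (1.73) and HNF4G liver mets (1.87). The starts of Baz2b, 578 kb downstream, and of Baz2b and March7, 492 kb downstream, were joined in both FOXA1 lists and in neither HNF4G list.

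Itga2 lies beside Itga1, the gene of another collagen-binding α subunit. The Itga2 promoter was joined in all 4 lists to an exon of Itga1 21.0 kb upstream (0.694, 0.51, 0.171 and 0.146) and to 2 sites in its own body, 10.2 and 80.5 kb downstream. These 3 were all the loops Itga2 had in HNF4G liver mets. The start of Itga1 itself, 168 kb upstream, was joined in HNF4G tumour (2.94), and an anchor 193 kb upstream in FOXA1 liver mets, with the highest Itga2 value of 8.27. Of 9 Itga2 loops in each FOXA1 list, 7 were in both.

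Cd44 had 2 loops listed in all 4 lists, both with low values. They ended in its own first part, 5.75 kb downstream (0.0844, 0.293, 0.155 and 0.106), and at an anchor 95.2 kb downstream (0.349, 0.301, 0.907 and 1.15). Of its 25 partners, 11 lay outside protein-coding genes. Those at 33.2 and 42.2 kb upstream were in both FOXA1 lists and HNF4G liver mets. The glutamate transporter gene Slc1a2 downstream was joined at its start, 243 kb away, in both tumour lists (1.68 and 1.82) and in neither liver mets list, and at an exon, 135 kb away, in both FOXA1 lists (2.22 in tumour, 1.04 in liver mets). The start of Ehf, an epithelial ETS factor gene, was joined 370 kb upstream in FOXA1 liver mets alone (1.74).

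All 6 Itgb1 loops went upstream, where the 50 other anchors within 2000 kb lay, with 0 on the downstream side. The gene lies close to the end of its chromosome. The longest, over 1836.4 kb, was in FOXA1 liver mets (4.04) and HNF4G tumour (1.99). The start of Nrp1, a semaphorin and VEGF co-receptor gene, was joined in FOXA1 tumour (328 kb, 1.81) and an exon of the polarity gene Pard3 in HNF4G liver mets (1547.5 kb, 1.99). The 1 loop in both liver mets lists and neither tumour list spanned 36.1 kb, with values of 0.273 in FOXA1 and 0.146 in HNF4G.

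Of the laminin chains, Lamb3 had 17 distinct loops, of which 16 were in a single list. The other one, to an anchor 152 kb upstream outside protein-coding genes, was in FOXA1 liver mets (1.2) and HNF4G tumour (1.57). No Lamb3 loop was in both FOXA1 lists or in both HNF4G lists.

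Lama3 had 6 loops, 4 of them to starts of other protein-coding genes. Its loop to Ankrd29, 61.1 kb upstream, was in FOXA1 tumour (0.123), FOXA1 liver mets (0.0889) and HNF4G tumour (0.171), while Rmc1, Cabyr and Cables1 were joined in a single FOXA1 list each. HNF4G liver mets held 0 Lama3 loops of 78098, which allows a share of up to 0.00384%, against 2 in HNF4G tumour, and no difference was detectable at these counts.

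Among the 253 loops, short ones were found in all lists more often than long ones (bar plot by span). In all, 30 loops (11.9%) were in all 4 lists and 137 (54.2%) in 1 list, beside 5.54% and 65.7% of the 181129 loops with a promoter anchor. Under 20 kb, 9 of 15 loops (60.0%) were in all 4 lists, and 33.3% of promoter loops were. Between 20 and 100 kb the shares were 26.1% of 69 and 11.6%, between 100 and 500 kb 3.19% of 94 and 2.14%, and above that 0.0% of 75 and 0.187%.

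Without Itga3, the share between 20 and 100 kb fell to 15.7% of 51, still above that of all promoter loops, and that between 100 and 500 kb to 1.23% of 81, below it. The median span of loops in all 4 lists was 31.1 kb, and that of loops in 1 list 406 kb. Most loops of the genes over at least 500 kb sat on 1 tied value per list: 14 of 22 at 1.91 in FOXA1 tumour, 21 of 32 at 1.87 in FOXA1 liver mets, and 20 of 25 and 12 of 12 at 1.99 in HNF4G tumour and HNF4G liver mets.

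**Figure D4:**
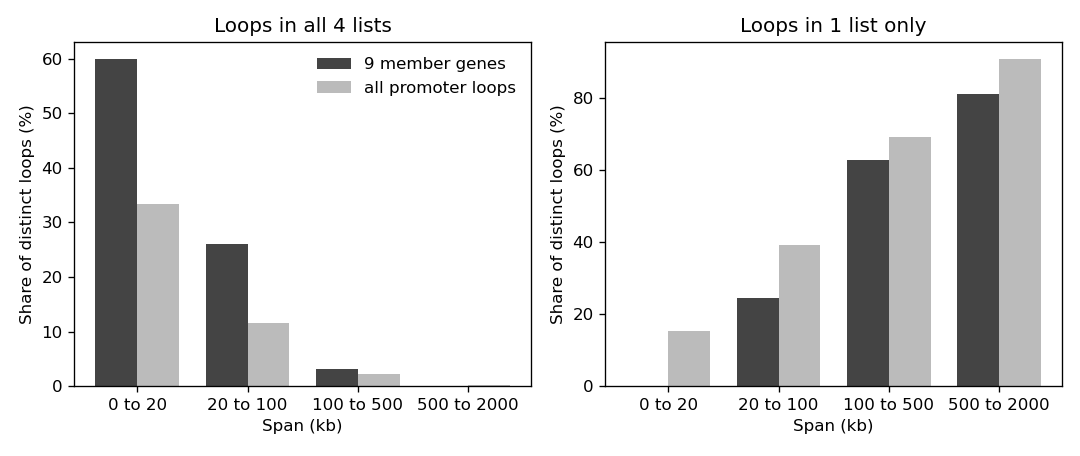
Share of distinct loops (y axis, percent) found in all 4 lists (left) and in 1 list (right) by span (x axis, kb), for the 9 genes and for all loops with a promoter anchor, with loops as the unit. Loops in all 4 lists make up 60.0% of the genes' loops under 20 kb and 0.0% of those from 500 kb.

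Of the loops of FOXA1 liver mets, 50.0% (74 loops, Wilson 95% interval 42.0 to 58.0) were also in FOXA1 tumour, and these were 57.4% of the tumour loops. In HNF4G, 37 loops were shared, 46.2% (35.7 to 57.1) of those in liver mets and 36.6% (27.9 to 46.4) of those in tumour. All promoter loops gave 34.2% and 40.6% in FOXA1 and 34.1% and 33.7% in HNF4G. Itga3 alone gave 27 of the 74 loops shared in FOXA1 and 18 of the 37 in HNF4G, while Lamb3 and Itgb1 gave 0 in both. Between the factors, 54 loops were shared in tumour (41.9% of FOXA1, 53.5% of HNF4G) and 47 in liver mets (31.8% and 58.8%). All promoter loops gave 29.6% and 38.4% in tumour and 28.3% and 44.1% in liver mets. Itga3 gave 24 of the 54 and 19 of the 47. Without Itga3, the shares of the remaining loops were lower in every pair. They fell below those of all promoter loops for HNF4G tumour (shared with HNF4G liver mets) and for FOXA1 liver mets (shared with HNF4G liver mets). In the other cases they stayed above, and no intervals were calculated for these shares.

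Loops in both FOXA1 lists and neither HNF4G list numbered 19 (7.51% of the 253, beside 5.49% of all promoter loops), with Itgb4 giving 5 and Itgb6 giving 4, and those in both HNF4G lists and neither FOXA1 list numbered 3 (1.19%, beside 1.94%). Both tumour lists alone shared 7 (2.77%, beside 2.61%) and both liver mets lists alone 5 (1.98%, beside 3.45%). The FOXA1 lists were the longer ones, and the part of list length in these numbers was not tested.

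Pooled over the 9 genes, the loops had a shorter median span than promoter loops as a whole in each list. This did not hold for each gene: Itgb6, for example, had a longer median in both FOXA1 lists. Their median spans were 116 kb in FOXA1 tumour, 119 kb in FOXA1 liver mets, 120 kb in HNF4G tumour and 82.5 kb in HNF4G liver mets, beside 150, 174, 142 and 123 kb. Loops of at least 100 kb made up 53.5%, 53.4%, 51.5% and 41.2%, beside 60.3%, 63.8%, 58.7% and 55.3%. Within the set, Cd44 had the shortest median over distinct loops, at 103 kb, and Itga3 the longest, at 527 kb. By list, however, the Itga3 medians were 139, 126, 137 and 84.5 kb in the same order, and in no list the longest of the set.

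Of the 253 loops, 127 (50.2%, 44.1 to 56.3) joined a promoter anchor to another one, beside 38.7% of all promoter loops. By list the shares were closer, from 40.0% in HNF4G liver mets to 47.5% in HNF4G tumour, where all promoter loops gave 40.0% and 42.0%. Itgb4 held 47 and Itga3 held 32 of the 108 loops to starts of other protein-coding genes, and Itga6 held 3.

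The related genes were 29 other genes for laminin chains, integrin subunits, hemidesmosome and focal adhesion proteins. An anchor lay near a start of 5 of 7 laminin chain genes, 4 of 6 integrin genes, 3 of 4 hemidesmosome genes and 11 of 12 focal adhesion genes. In FOXA1, 16 could be counted, of which 1 was higher in liver mets past 1.5 (Fermt1, kindlin-1, 3 and 8 loops, ratio 2.21, 0.531 to 12.9) and 0 were lower. Over all genes counted, 11.4% were higher and 15.2% lower.

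In HNF4G, 13 of the related genes could be counted. Parva, α-parvin, was higher in liver mets (6 and 16 loops, ratio 2.61, 0.969 to 8.13). Lamc1, the laminin γ1 chain (8 and 4, ratio 0.489), Ptk2, focal adhesion kinase (6 and 4, ratio 0.652), and Pxn, paxillin (37 and 24, ratio 0.634, 0.363 to 1.09), were lower. Each of these intervals includes 1, and the median log2 ratio of the 13 was -0.126, beside -0.0332 over all genes counted. Thus 1 of 13 was higher and 3 were lower, where 12.7% and 19.5% of all genes counted were.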

How the data were processed

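FOXA1 and HNF4G Hi-ChIP of KPC tumour and liver mets lines was analysed from 1 deposited loop list per group (4 lists, 8 samples, 2 replicates per group, grouped by title). Per the labels and the study's methods, reads were mapped to mm10 (GRCm38) with HiC-Pro 3.1.0 (submitters' processing notes), defaults, DpnII fragments and removal of duplicates, and loops were called with hichipper. The source of the anchors, the minimum of read pairs and the joining of replicates were not given in the sources used here. The −log10 adjusted p is how the value deposited by the authors was read, from the values alone. A display score, also deposited, was left unused. Loops spanned 5 to 2000 kb.

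Starts were taken from GENCODE M21, the distance between anchor midpoints was the span, and loops were matched by overlap of both anchors (1 bp), overlapping anchors being identical throughout. Upstream and downstream follow the gene's strand. Ratios of list shares and intervals were calculated with scipy 1.17.1, pandas 2.3.3 and numpy 2.4.6, and sequences read from the RefSeq GRCm38.p6 genome with pysam 0.24.0, and the scripts were tested on simulated data. The members and lists were chosen with earlier results of these data known. For each gene, up to 3 loops in all 4 lists with the highest lowest value, the longest loop and up to 2 loops in both lists of one line and neither of the other were selected by rule. Other loops named were chosen after their values were seen. Alternatives were another window (5 kb) or start set, widened anchors, minimum values of 2 and 4, loops of at least 100 kb or under 100 kb, unscaled numbers, another fold or count minimum, and each gene left out. Some items are not reported here.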

Additional observations from a re-analysis of the deposited data

Results flagged for a closer look

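The first Itgb4 anchor had ratios of list shares, liver mets over tumour, of 1.13 (95% interval 0.535 to 2.42) in FOXA1 and 0.326 (0.106 to 0.857) in HNF4G. It is named here because the ratios stood on either side of 1 in the 2 factors and the HNF4G interval excluded 1. The FOXA1 interval includes 1 and gives no direction. Whether the 2 ratios differ was not tested, as no group had more than 1 list. The loops of 1 anchor are not independent, and the anchor was 1 of 10 looked at.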

How the results depend on the processing

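No paired analysis was possible because each group had 1 list over both replicates, and for the same reason no replicate could be left out. The intervals cover counting error only, the read depth behind each loop is unknown, and loops under 5 kb are outside the lists. The ratios of the 9 genes together stayed within their own intervals except as follows. With values of at least 4, the FOXA1 ratio liver mets over tumour was 1.46 (13 and 5 loops) and FOXA1 over HNF4G in tumour was 0.643. Without scaling by list length, FOXA1 over HNF4G was 1.28 in tumour and 1.85 in liver mets. The share of the smaller list found in both lists rose with anchors widened by 5 kb to 65.9% (FOXA1 pair), 60.0% (HNF4G pair) and 71.2% (liver mets pair), and was 41.2% (FOXA1 pair), 40.0% (tumour pair) and 40.0% (liver mets pair) with values of at least 2. The genes past the fold in FOXA1 numbered 287 higher and 354 lower at a fold of 2, and 263 and 361 with at least 20 loops, against 782 and 1046. In HNF4G they numbered 266 and 402, and 178 and 390, against 687 and 1060. With starts of protein-coding transcripts only, the HNF4G ratio of Itgb4 was 0.326, since its second anchor then drops out, and Itgb6 had no value, as it also had none where the anchor had to overlap the start. With starts within 5 kb, the HNF4G ratio of Cd44 turned from 0.652 to 1.05, and Lamb3 (0.838) and Itgb4 (0.749) lost the fold, the cause of which was not tested. In FOXA1, 0 of the genes passed the fold except Itga3 with values of at least 2 (0.522). Itga3 was also lower past the fold in HNF4G with values of at least 2 (0.661, 12 loops in tumour and 8 in liver mets). With loops under 100 kb, 0 of the 3 genes that could be counted in HNF4G passed the fold. With loops of at least 100 kb, 3 could be counted and Itgb4 alone was lower (0.485). With protein-coding transcripts only, the HNF4G ratio of all the genes was 0.683 (0.48 to 0.967), which excludes 1 but includes the 0.965 of all promoter loops. Leaving out each gene in turn, an alternative added after seeing the data, kept all 4 ratios within the intervals of the full set.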
